A study of Mus musculus with 45 samples.

Results

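The genes described here encode the nuclear subunits of the mitochondrial respiratory chain. They were chosen by symbol: every deposited protein-coding row whose symbol began with Ndufa, Ndufb, Ndufc, Ndufs, Ndufv, Uqcr, Cox4 to Cox8 followed by a letter, or Atp5. The rule found 89 genes of 36300, of which 19058 were protein-coding. These were 36 subunits of complex I, 8 of complex III, 19 of complex IV and 16 of complex V. The symbols also took in 8 assembly factors of complex I (Ndufaf1 to Ndufaf8), the Ndufa4 paralog Ndufa4l2 and the factor-B gene Atp5s. These were kept out of the values given per complex, but counts and medians over all subunit genes include them. Ndufa4 itself is counted with complex IV. A further 11 rows had a matching symbol but no protein-coding biotype and were left out.

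Forelimb buds of CD1 mice, an outbred strain, were taken on gestation day 13 and cultured ex vivo in bottles gassed before culture with 50% oxygen, with DMSO as vehicle or with bisphenol A (BPA, a plasticiser and weak oestrogen mimic) at 10 or 50 µM. Cultures were ended at 3, 24 or 48 h, which gave 9 groups of 5 libraries, 45 in all. No group carried a transgene or deletion, and limbs of male and female embryos were mixed within cultures. Nothing in the labels ties a library to a litter, so the p-values measure the spread between these cultures.

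Complex I takes electrons from NADH, complex III passes them from ubiquinol to cytochrome c, complex IV hands them to oxygen, and complex V uses the proton gradient that results to make ATP. Each of these complexes joins a few subunits made from mitochondrial DNA to many made from nuclear genes, and several complex IV subunits have alternative isoforms for striated muscle, testis or low oxygen. In the limb bud, cartilage and muscle form side by side, and the muscle isoforms mark differentiating muscle fibres.

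Libraries held 17540925 to 27119650 counts, of which the 89 genes took 0.531% to 0.879%. At 48 h the summed level of 12 skeletal muscle markers, in CPM (counts scaled to library size), was 3667 to 5616 in vehicle, 2775 to 4628 at 10 µM and 1365 to 2318 at 50 µM. None of the 12 was at 0 over a group. In whole limb RNA, fewer cells of a type and less RNA per cell cannot be told apart.

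Most subunits were well expressed. On the deposited FPKM scale, which divides by gene length and so allows genes to be compared, the mean of the 15 vehicle libraries had a median of 27.3 over complex I subunits, 57.6 over complex III, 39.2 over complex IV and 38.6 over complex V. The assembly factors, which are not part of the finished complex, were lower, with a median of 6.66 FPKM and a range of 3.74 to 14.3.

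Atp5a1 and Atp5b of the catalytic head of ATP synthase were highest, with Atp5a1 (alpha subunit) at 250.7 ± 24.7 FPKM and Atp5b (beta subunit) at 186 ± 15.8 (SD, n = 15 vehicle libraries of 3 times). The central-stalk gamma subunit Atp5c1 was at 94.7 ± 7.88 FPKM. In complex IV the common isoforms led, Cox6a1 at 172 ± 21.1 FPKM, Cox4i1 at 161 ± 14.1 and Cox8a at 152 ± 19.1. These 3 levels lie within about 1 SD of each other, so their order was not resolved. In complex I, the accessory subunits Ndufb11 at 62.8 ± 8.04 FPKM and Ndufa2 at 54.9 ± 10.8 were among the 3 highest. Complex III was led by the small subunits Uqcr10 (70.6 ± 11.2 FPKM), Uqcrh (67.4 ± 9.72) and Uqcrb (64.0 ± 7.17), whose spreads overlapped.

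The alternative isoforms were far below their partners. Cox6a2 and Cox8b, the striated-muscle isoforms, were at 9.29 ± 5.43 and 1.97 ± 1.67 FPKM, and Cox7a1, also a muscle isoform, was at 1.44 ± 0.53. Cox4i2, an isoform known from lung and low oxygen, was at 7.99 ± 2.85 FPKM, and Cox6b2, the testis isoform, at 8.29 ± 3.36. Ndufa4l2, known as a hypoxia-induced gene, was at 2.65 ± 2.74 FPKM against 51.8 for Ndufa4. Cox7b2 and Cox8c, isoforms best known from testis, had at most 5 reads in any library. They never passed the filter on low counts, and Cox8b passed it in some comparisons only.

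**Figure D1:**
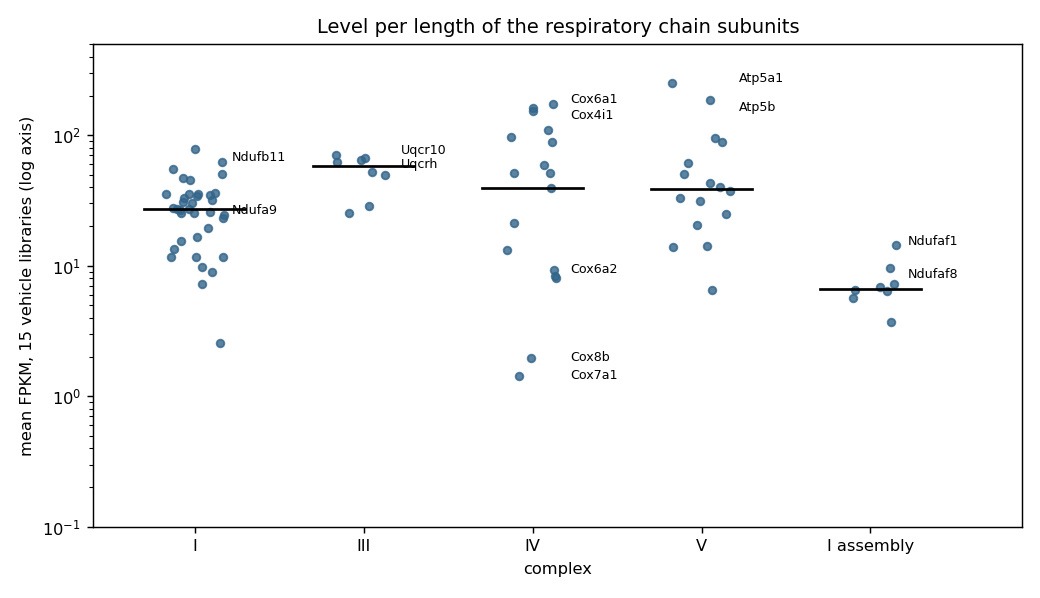
Mean FPKM over the 15 vehicle libraries (log axis) for each subunit, grouped by complex, with a black bar at each median. Cox7b2 and Cox8c, below 0.1 FPKM, are not drawn but count in the median; the muscle isoforms Cox6a2, Cox8b and Cox7a1 sit below the main body of complex IV.

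Start-site windows were available in the RefSeq table (GRCm38.p6, the assembly behind mm10) for 71 of the 89 symbols, giving 76 windows of 250 bases before to 50 after the start. Their median GC content was 57.3%, against 52.7% over all 32851 windows. The consensus site of nuclear respiratory factor 1 (NRF1) was found in 18 of the 76 windows (23.7%), against 4.6% of all windows, counting matches to either strand here and for each motif that follows. AAGATGGCG, the YY1 site, was in 8 windows (10.5%, against 1.40%). CCGGAAGT, the GABP site, was in 5 (6.58%, against 3.89%), and TCAAGGTCA, the ERR site, was in 1 (1.32%, against 0.423%). CAGCTG, an E-box known from muscle genes that reads the same on both strands, was in 6 windows (7.89%, against 16.3%), and TATAAA was in 8 (10.5%, against 13.6%). A match is a run of letters, not a measured binding site, and GC content was not matched.

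Stretches from 6 windows are printed below, 5′ to 3′ on the gene's strand, with the matching letters in capitals. Atp5b and Atp5h stand for the complex V genes that fell with time in culture or with BPA, and Cox8b is a striated-muscle isoform. Atp5h holds an NRF1 match on the opposite strand, 141 to 132 bases before the start, and a GABP match on that strand, 39 to 32 bases before. Atp5b and Cox8b each hold CAGCTG, 39 to 34 and 19 to 14 bases before their starts. The windows are chr11:115419920-115420169 (minus strand) for Atp5h, chr10:128083057-128083306 (plus) for Atp5b and chr7:140900447-140900696 (minus) for Cox8b.
Atp5h: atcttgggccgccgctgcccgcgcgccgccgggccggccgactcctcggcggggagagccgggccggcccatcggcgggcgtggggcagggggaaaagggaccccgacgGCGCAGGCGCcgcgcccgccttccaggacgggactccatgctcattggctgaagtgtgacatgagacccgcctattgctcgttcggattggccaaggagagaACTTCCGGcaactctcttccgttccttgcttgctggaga
Atp5b: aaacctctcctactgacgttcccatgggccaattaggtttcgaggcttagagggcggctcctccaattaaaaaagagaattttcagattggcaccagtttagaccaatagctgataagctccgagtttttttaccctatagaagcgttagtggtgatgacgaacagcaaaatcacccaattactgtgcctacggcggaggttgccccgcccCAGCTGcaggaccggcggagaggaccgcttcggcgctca
Cox8b: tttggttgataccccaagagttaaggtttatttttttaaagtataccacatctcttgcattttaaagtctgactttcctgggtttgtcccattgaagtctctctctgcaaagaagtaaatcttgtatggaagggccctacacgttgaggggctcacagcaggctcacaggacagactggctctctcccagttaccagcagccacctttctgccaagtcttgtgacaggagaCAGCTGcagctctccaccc

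The other stretches, of 30 bases each, show the YY1 letters just after the starts of Ndufa9 and Atp5j2, both called lower at 50 µM, and the GABP letters (as ACTTCCGG, on the opposite strand) across the start of Cox8a. They lie at chr6:126849096-126849125 (minus strand) for Ndufa9, chr5:145191499-145191528 (minus) for Atp5j2 and chr19:7217604-7217633 (minus) for Cox8a.
Ndufa9: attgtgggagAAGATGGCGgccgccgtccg
Atp5j2: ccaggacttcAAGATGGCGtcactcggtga
Cox8a: atttccgaaatACTTCCGGctcgggcgtcc

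In vehicle cultures 4 genes of the complex V head and stalk fell between 3 and 24 h and Cox6a2, a muscle isoform of complex IV, rose. Each comparison was tested with edgeR's quasi-likelihood test, with Benjamini-Hochberg adjustment over all genes, and a gene is called where the adjusted p is below 0.05. Between 3 and 24 h, 2 of the 86 tested subunit genes rose and 6 fell (9.30%), against 30% of all genes tested (16.3% higher and 13.8% lower). In all 8 the groups did not overlap, 2 above and 6 below, against 11.1% and 10.6% of all genes. The median log2 fold change of the subunit genes was -0.04, and ranged from -0.09 without replicate 1 of 24 h to 0.007 without replicate 2 of 24 h.

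Cox6a2 (chr7:128205435-128206387, minus strand) had 1.75, 1.18, 2.46, 2.00 and 2.81 CPM in the vehicle libraries of 3 h. It had 8.34, 6.22, 9.38, 5.73 and 5.86 CPM at 24 h and 8.89, 10.1, 13.7, 7.95 and 8.94 CPM at 48 h. Every library of the later times lay above every library of 3 h. The log2 fold change was 1.8 (SE 0.237, adjusted p = 4.10e-05) from 3 to 24 h and 2.27 (SE 0.220, adjusted p = 3.52e-07) from 3 to 48 h, a 4.82-fold rise. Its exons share 10.3% of their length with Itgad on the opposite strand, and the sources used here do not give whether counting used strand.

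Cox8b (chr7:140898945-140900446, minus strand) had 0.164, 0.112, 0.432, 0 and 0.176 CPM at 3 h and 1.26, 0.957, 2.23, 0.903 and 1.35 CPM at 48 h. These groups did not overlap either, although the 3 h values rest on 0 to 10 reads per library. It passed the low-count filter only through the 48 h group, where it is high, so its call from 3 to 48 h is given with no test.

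The muscle markers moved beside these isoforms. Their summed level was 1038 to 1156 CPM at 3 h, 2201 to 4217 at 24 h and 3667 to 5616 at 48 h, and 10 of the 11 tested rose from 3 to 24 h and 10 of 11 from 3 to 48 h. Their part in the result was not tested.

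Cox4i2 (chr2:152754173-152765037, plus strand) went the other way. It had 10.5, 9.39, 7.86, 10.4 and 6.98 CPM at 3 h and 4.72, 5.55, 6.41, 4.59 and 4.10 at 24 h, with no overlap. The log2 fold change was -0.82 (SE 0.168, adjusted p = 0.00173), and -0.87 from 3 to 48 h (adjusted p = 0.00101). Endothelial markers moved with it: 7 of 8 fell from 3 to 24 h, their sum going from 358 to 414 CPM down to 250.2 to 298. Of 15 hypoxia-responsive genes, 5 fell and 0 rose over the same interval, among them the glucose transporter Slc2a1 (log2 fold change -0.75, adjusted p = 0.0003) and the stress gene Ddit4 (-0.80, adjusted p = 0.000872). The part of either list in the result was not tested.

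The complex V genes that fell from 3 to 24 h were Atp5a1 and Atp5b of the catalytic head and Atp5f1 (subunit b) and Atp5h (subunit d) of the stalk that holds it still. Other head and stalk genes were not called, among them Atp5c1 (adjusted p = 0.0515), Atp5d (log2 fold change -0.02, adjusted p = 0.912) and Atp5o (-0.13, adjusted p = 0.265). Atp5a1 had 909, 939, 772, 847 and 951 CPM at 3 h and 767, 721, 723, 765 and 757 at 24 h. The groups did not overlap, though the highest library of 24 h lay just under the lowest of 3 h. The log2 fold changes were -0.23 for Atp5a1 (SE 0.0629, adjusted p = 0.0113), -0.24 for Atp5f1 (SE 0.0548, adjusted p = 0.00439), -0.21 for Atp5b (SE 0.0600, adjusted p = 0.0144) and -0.19 for Atp5h (SE 0.0615, adjusted p = 0.0289). Together 4 of the 16 complex V genes fell (25.0%), against 13.8% of all genes called lower. No complex V gene was called higher, and 30% of all genes were called either way. The share of complex V genes called was thus not above that of all genes. The Atp5h call was lost without any 1 of 5 libraries, with an adjusted p of up to 0.0847. Without replicate 1 of 24 h, 13 subunit genes were called in place of 8.

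Uqcrc2, a core protein of complex III, fell by 0.19 on the log2 scale (adjusted p = 0.0162), with 135 to 153 CPM at 3 h and 121 to 133 at 24 h. Ndufaf4, an assembly factor of complex I, rose by 0.40 on the log2 scale (SE 0.097, adjusted p = 0.00555), from 18.7 to 25.0 CPM up to 25.8 to 32.99, without overlap. None of the 36 complex I subunits was called in this interval by edgeR, with 4 at an unadjusted p under 0.05.

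From 24 to 48 h Cox6b2 alone was called, higher, 1 of 87 tested (1.15%, against 8.45% of all genes). It had 12.1, 4.22, 7.53, 4.83 and 5.50 CPM at 24 h and 16.8, 15.6, 12.1, 9.75 and 9.80 at 48 h. The groups overlapped through the highest library of 24 h. The log2 fold change was 0.90 (SE 0.264, adjusted p = 0.0486), and the call was lost in 8 of 10 fits that each left out 1 library, with an adjusted p of up to 0.117. No subunit gene was called in these 8 fits, which left out replicates 2 to 5 of 24 h and 1, 2, 3 and 5 of 48 h, while 2 were called without replicate 1 of 24 h.

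Over the whole interval from 3 to 48 h, 9 of 87 rose, Cox8b among them, and 7 fell (18.4%), against 46.7% of all genes. Beside the isoforms above, the risers were the complex I accessory genes Ndufa5 (log2 fold change 0.31, adjusted p = 0.0168), Ndufa7 (0.23, adjusted p = 0.0348) and Ndufab1 (0.19, adjusted p = 0.0467), the c-ring gene Atp5g1 (0.21, adjusted p = 0.0484), Uqcrq of complex III (0.30, adjusted p = 0.0497) and Ndufaf4 (0.27, adjusted p = 0.025). The calls of Ndufa7, Ndufab1, Atp5g1 and Uqcrq were each lost in 5 or 6 of 10 fits without 1 library, with an adjusted p of up to 0.142. Atp5h (-0.27, adjusted p = 0.00413), Atp5a1 (-0.24, adjusted p = 0.00748), Atp5f1 (-0.19, adjusted p = 0.0177), Atp5b (-0.16, adjusted p = 0.0458), Uqcrc1 (-0.22, adjusted p = 0.0134) and Uqcrc2 (-0.19, adjusted p = 0.0222) fell, as did Cox4i2. The call of Atp5b was lost in 7 of 10 such fits, with an adjusted p of up to 0.122. Of the 16 complex V genes, 4 were thus called lower and 1 higher, against 46.7% of all genes called either way. The other c-ring genes, Atp5g2 and Atp5g3, were not called.

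**Figure D2:**
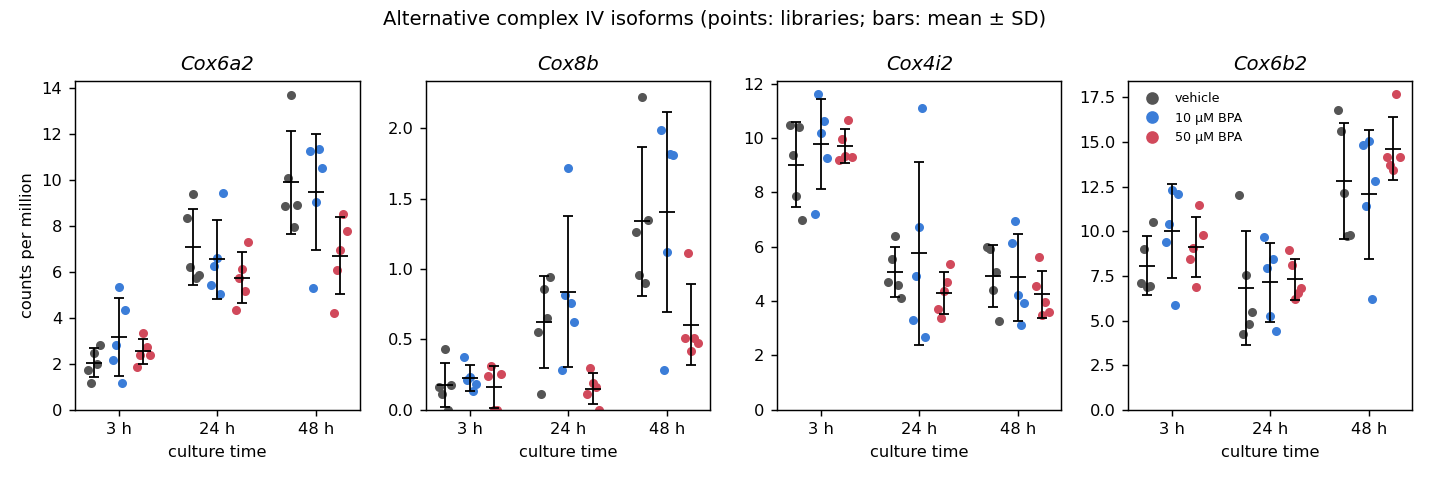
CPM of 4 alternative complex IV isoforms in each library against culture time, by treatment, with bars at the mean ± SD of 5 libraries. In vehicle Cox6a2 goes from 1.18 to 2.81 CPM at 3 h to 7.95 to 13.7 at 48 h, Cox4i2 is lower after 3 h, and the 50 µM libraries of 48 h lie low in Cox6a2 and Cox8b.

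The shares of Cox6a2, Cox8b and Cox4i2 followed the same course. Shares are of FPKM, that is per length. Cox6a2 made up 1.76 ± 0.581% of the summed FPKM of Cox6a1 and Cox6a2 at 3 h, 5.82 ± 0.588% at 24 h and 7.42 ± 1.72% at 48 h (SD, n = 5). Cox8b went from 0.335 ± 0.331% of its pair with Cox8a at 3 h to 2.19 ± 0.753% at 48 h. The Cox4i2 share of its pair was 6.44 ± 1.34% at 3 h and 3.77 ± 0.709% at 48 h. Cox7a1, also a muscle isoform, did not share the rise. Its part of the pair with Cox7a2 was 2.89 ± 0.747% at 3 h, 2.98 ± 0.906% at 24 h and 2.53 ± 1.52% at 48 h. The common isoform held most of each pair's FPKM at every time in vehicle.

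At 50 µM BPA for 3 h, no subunit gene was called among 86 tested, against 1.41% of all genes. edgeR gave 3 at an unadjusted p under 0.05 and DESeq2 called 0. The median log2 fold change was -0.02, and ranged from -0.06 without replicate 3 of vehicle to 0.02 without replicate 3 of 50 µM. For 81 of the 86 (94.2%) the 95% interval of the fold change lay within 1.5-fold, against 68.1% of all genes tested. Those 3 were Ndufaf2 (0.35, adjusted p = 0.266), Atp5h (-0.15, adjusted p = 0.368) and Cox6c, a small complex IV subunit. Cox6c had 69.7, 76.2, 58.5, 83.2 and 77.3 CPM, against 72.3, 89.8, 80.8, 97.2 and 89.1 in vehicle. Replicates 1 and 3 of 50 µM lay below the vehicle range, and the groups overlapped (log2 fold change -0.24, adjusted p = 0.284).

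Of the 13 subunits made from mitochondrial DNA, 4 fell at 3 h: mt-Cytb of complex III by 0.49 (SE 0.0667, adjusted p = 0.000674), and the complex I genes mt-Nd6 by 0.57 (SE 0.0903, adjusted p = 0.00245), mt-Nd4 by 0.45 (SE 0.0712, adjusted p = 0.00245) and mt-Nd1 by 0.38 (SE 0.0774, adjusted p = 0.0204), all on the log2 scale. Their median log2 fold change over 13 genes was -0.40. Whether these genes differed from the nuclear subunits was not tested. At 24 h mt-Cytb (-0.46, adjusted p = 0.00739) and mt-Nd6 (-0.52, adjusted p = 0.0152) were called lower, and at 48 h mt-Nd6 was lower (-0.46, adjusted p = 0.00851) and mt-Co1 of complex IV higher (0.45, adjusted p = 0.00741).

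At 24 h and 50 µM, 2 of 86 subunit genes fell (2.33%), Ndufa4l2 among them, against 3.47% of all genes called either way and 2.1% called lower. The median log2 fold change was -0.06, and was -0.14 without replicate 1 of 50 µM, -0.10 without replicate 2 of vehicle, -0.03 without replicate 1 of vehicle and 0.002 without replicate 3 of 50 µM. Ndufa9 (chr6:126821721-126849136, minus strand), an accessory subunit at the joint of the matrix arm and the membrane arm of complex I, had 65.0, 65.1, 57.8, 62.1 and 60.7 CPM in vehicle. It had 53.6, 47.5, 49.3, 50.5 and 52.0 CPM at 50 µM. All treated libraries lay below all vehicle libraries. The log2 fold change was -0.30 (SE 0.0646, adjusted p = 0.0183), and it kept its call in 9 of 10 fits without 1 library. Without replicate 2 of the 50 µM group its adjusted p was 0.072, and no subunit gene was then called by edgeR.

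Ndufa4l2 (chr10:127514967-127517154, plus strand) had 2.06, 1.33, 3.52, 2.68 and 1.13 CPM in vehicle and 0.383, 0.689, 0.750, 1.31 and 0.618 at 50 µM, with overlap. Its log2 fold change was -1.52. It passed the low-count filter only through the vehicle group, where it is high, so its call is given with no test. The call was lost in 7 of 10 fits without 1 library. The count of 2 was 1 without replicate 1, 3 or 4 of vehicle or replicate 3 or 5 of 50 µM. At 48 h the vehicle libraries alone spread from 0.556 to 12.2 CPM, and the difference from 50 µM was not called (log2 fold change -1.28, adjusted p = 0.338).

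At 48 h and 50 µM, nearly all subunit genes lay slightly below vehicle, and 5 of 87 fell (5.75%), against 9.18% of all genes called either way and 5.3% called lower. The share called was thus near the background. The direction was shared more widely: 79 of 87 fold changes were below 0, against 51.0% of all genes tested, with a median log2 fold change of -0.16 against -0.005 for all genes. All 8 complex III and all 16 complex V genes were below 0, with 34 of 36 in complex I and 14 of 17 tested in complex IV. The medians were -0.15 for complex I, -0.17 for complex III, -0.14 for complex IV and -0.20 for complex V. The assembly factors had a median of -0.05, with 6 of 8 below 0. These genes are measured in the same libraries, so the shared direction is a description and carries no test.

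The 5 that fell were 2 genes of complex I and 3 of complex V, of which 4 are described here. Atp5f1 (chr3:105942698-105960099, minus strand) had 183, 172, 156, 164 and 180.4 CPM in vehicle and 145, 154, 137, 145 and 153 at 50 µM. The groups did not overlap. Its log2 fold change was -0.23 (SE 0.0556, adjusted p = 0.0164), with the call kept in 10 of 10 fits without 1 library. It was lost with the level of short transcripts outside the set as a covariate (described with those transcripts), as were the calls of Atp5b, Ndufa9 and Atp5j2. Exons of Wdr77 on the opposite strand cover 8.21% of it. At 10 µM the gene overlapped vehicle (log2 fold change -0.07, interval -0.21 to 0.06).

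Atp5b (chr10:128083273-128090391, plus strand) had 807, 763, 725, 727 and 827 CPM in vehicle and 676, 688, 658, 645 and 707 at 50 µM, without overlap. Its log2 fold change was -0.20 (SE 0.0531, adjusted p = 0.0276). Ndufa9 had 62.4, 63.4, 57.2, 56.5 and 64.9 CPM in vehicle and 54.2, 54.4, 53.2, 51.5 and 52.6 at 50 µM, again without overlap. Its log2 fold change was -0.20 (SE 0.0554, adjusted p = 0.0309).

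Atp5j2 (chr5:145183698-145192062, minus strand), the f subunit in the membrane part of complex V, had 132, 105, 104, 101 and 110.0 CPM in vehicle. It had 90.8, 104, 85.5, 84.5 and 98.8 CPM at 50 µM, so the groups overlapped through replicate 2. Its log2 fold change was -0.26 (SE 0.0781, adjusted p = 0.048). The calls of Atp5b, Ndufa9 and Atp5j2 held in 4, 2 and 2 of 10 fits without 1 library, with adjusted p-values of up to 0.081, 0.0819 and 0.123. Counting groups that did not overlap, 5 of 87 (5.75%) lay below vehicle in all libraries, against 4.83% of all genes. Among these Ndufa5 was not called (log2 fold change -0.26, adjusted p = 0.114).

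**Figure D3:**
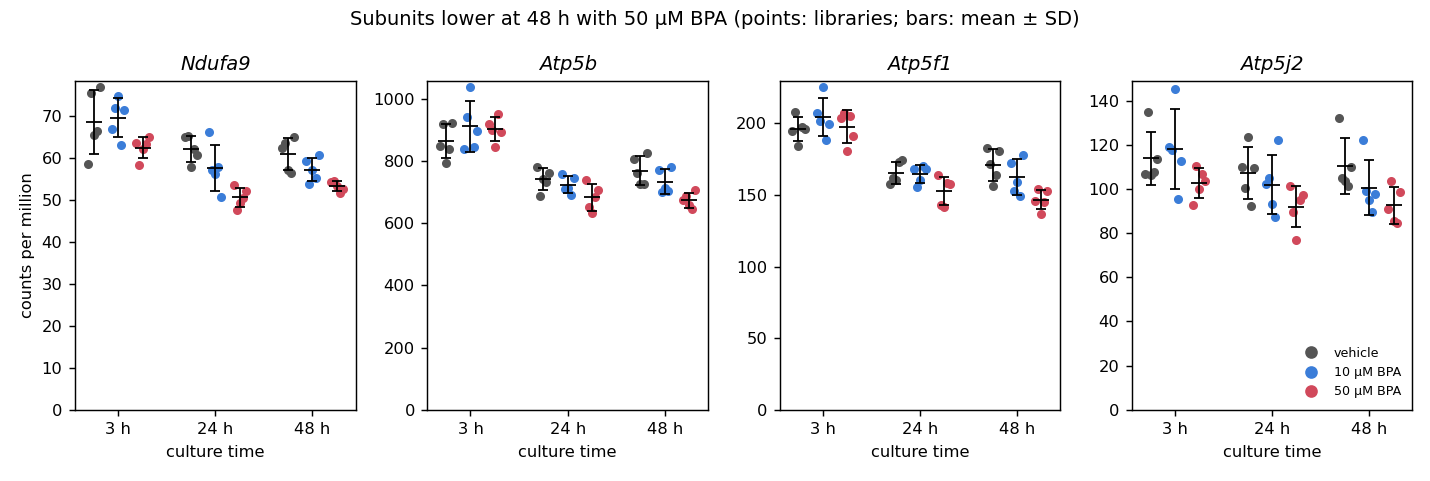
CPM in each library of the 4 described subunit genes called lower at 50 µM and 48 h, against culture time and by treatment, with bars at the mean ± SD of 5 libraries and axes from 0. At 48 h the 50 µM libraries lie below all vehicle libraries for Ndufa9, Atp5b (645 to 707 against 725 to 827 CPM) and Atp5f1, and overlap them for Atp5j2.

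Replicate numbers were taken as pairs in this comparison on weak correlations alone (every same-numbered pair at over 0.1), so the pairing is an assumption. With the replicate number as a block 18 of 87 subunit genes fell and 0 rose. Of all 16732 genes tested, 15.5% were called either way, 1219 higher and 1379 lower. The 18 held 9 genes of complex V, 4 of complex I, 2 of complex III, 2 of complex IV and Ndufa4l2, which is at a low level. In that fit Cox6a2 was lower by 0.58 (adjusted p = 0.0268), Uqcrc1 by 0.18 (adjusted p = 0.0167), Uqcrfs1, the Rieske iron-sulphur protein, by 0.16 (adjusted p = 0.049), and the c-ring gene Atp5g1 by 0.18 (adjusted p = 0.0382), all on the log2 scale. The count also moved with single libraries, being 2 without replicate 1 or 2 of vehicle or replicate 3 or 4 of 50 µM, 3 without replicate 5 of 50 µM and 8 without replicate 4 of vehicle.

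The levels of short transcripts outside the set moved beside the subunit genes, many of which are longer than 1000 bases. The 4 described genes called lower run from 2101 (Ndufa9) to 4237 bases (Atp5b). Per library, the median shift of the subunit genes from the vehicle mean of the same hour was -0.12, -0.15, -0.16, -0.14 and -0.11 (log2 CPM) at 50 µM and 48 h. Protein-coding genes of up to 1000 bases outside the set (121 genes) were at -0.04, -0.04, -0.10, -0.04 and -0.05 in the same libraries. The 5 vehicle libraries of 48 h ranged from -0.10 to 0.16 for the subunits and from -0.11 to 0.17 for the short genes. With the level of these short genes as a covariate, a setting chosen after the data were seen, 1 subunit gene fell, which was none of the 4 described, 70 of 87 were below 0 and the median was -0.09. Cytosolic ribosomal protein genes had a median log2 fold change of -0.01, with 0 of 74 called by edgeR.

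**Figure D4:**
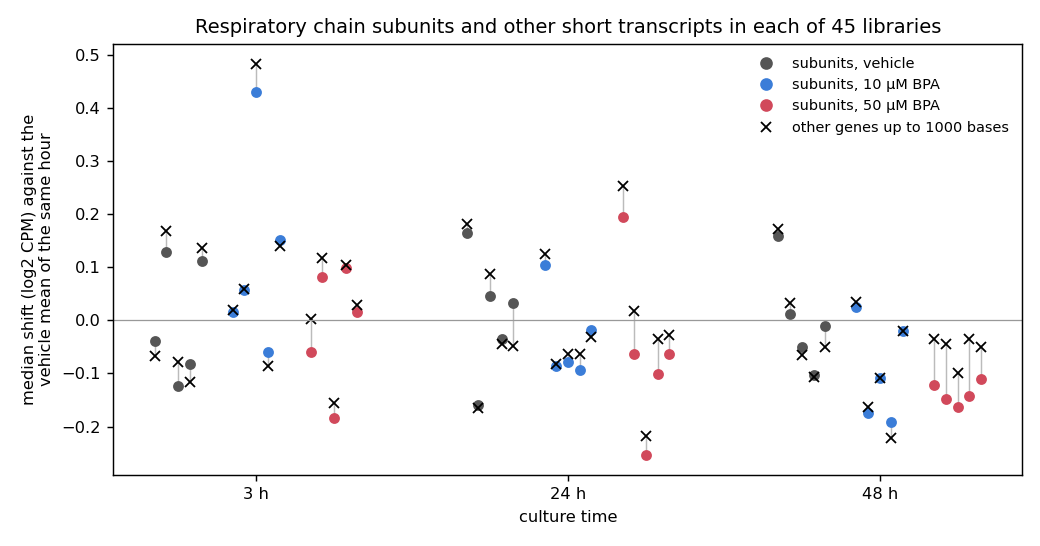
Median log2 shift in CPM from the vehicle mean of the same hour, for the subunit genes (dots, by treatment) and for 121 other protein-coding genes of up to 1000 bases (crosses), in each of 45 libraries. Dots and crosses lie close together in most libraries, the highest pair being replicate 3 of 10 µM at 3 h (0.43 and 0.48), and the 50 µM dots of 48 h lie below their crosses.

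Summed over complex I, the libraries had 1626 to 1874 CPM in vehicle and 1559 to 1601 at 50 µM and 48 h, and summed over complex V 2594 to 3001 and 2394 to 2504. Neither pair of ranges overlapped. The 10 µM libraries of 48 h had 1507.5 to 1706.8 CPM over complex I and 2438.1 to 2754.2 over complex V. Both of these ranges overlapped vehicle and 50 µM. The complex V sum rests largely on Atp5a1 and Atp5b, with means of 746 and 770 CPM of 2761 in vehicle at 48 h. Complex III (614 to 739 against 584 to 631 CPM) and complex IV (1055 to 1354 against 1053 to 1126 CPM) overlapped. Muscle markers differed much more, 10 of 11 tested being called lower with a median log2 fold change of -1.26, and of 8 macrophage markers 5 were called lower (sums of 232 to 316 CPM in vehicle and 123 to 235 at 50 µM). The part of either list in the lower subunit levels was not tested.

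**Figure D5:**
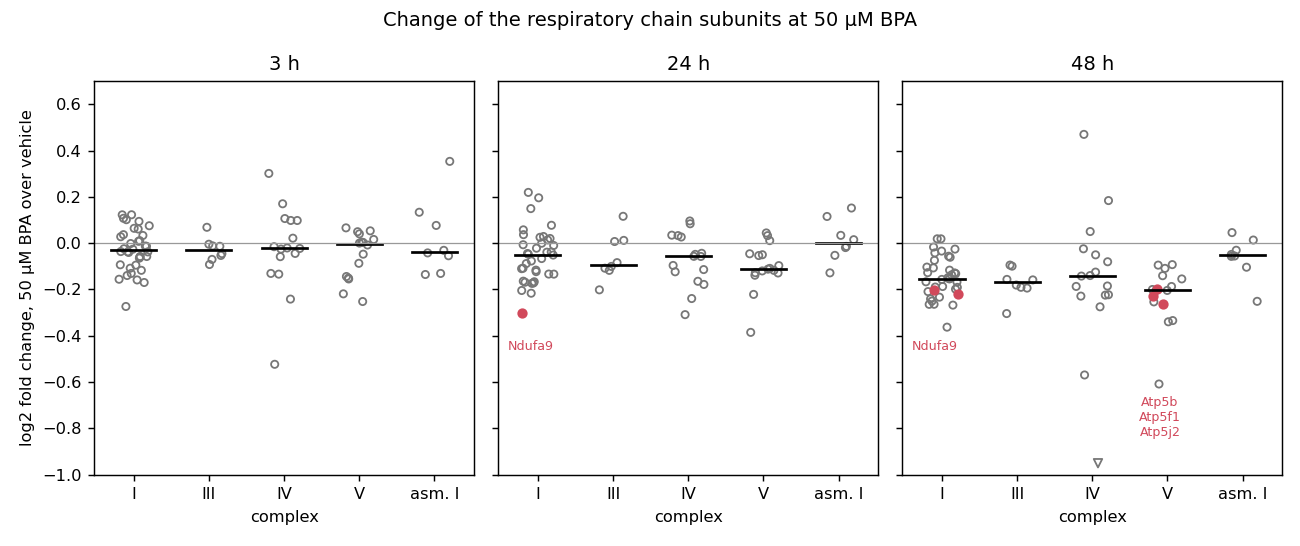
Log2 fold change of each tested subunit gene at 50 µM BPA over vehicle at 3, 24 and 48 h, by complex (asm. I, assembly factors), with red points called lower, 4 of the genes named in red, and black bars at medians. Ndufa4l2 and Atp5s are not drawn, and a triangle marks Cox8b at 48 h (-1.14), off the axis; at 48 h the medians of complexes I, III, IV and V run from -0.14 to -0.20.

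At 50 µM and 48 h the muscle isoforms Cox6a2 and Cox8b had fold changes below 0 that did not pass the threshold. Cox6a2 had 4.196, 6.08, 6.96, 8.50 and 7.79 CPM, against 7.95 to 13.7 in vehicle (log2 fold change -0.57, 95% interval -0.97 to -0.17, adjusted p = 0.0756). Cox8b had 0.512, 1.11, 0.417, 0.509 and 0.477 CPM, against 0.903 to 2.23 (log2 fold change -1.14). It passed the low-count filter only through the vehicle group, where it is high, so its fold change is given with no test. In Cox6a2 the groups overlapped in 1 treated library, and in Cox8b replicate 2 alone reached the vehicle range. DESeq2 called Cox6a2 lower (adjusted p = 0.0314), as did the block. The Cox6a2 share of its pair's FPKM was 5.40 ± 1.47% and that of Cox8b 1.16 ± 0.596% (SD, n = 5), against 7.42% and 2.19% in vehicle. The share of Cox7a1, also a muscle isoform, lay the other way, at 3.63 ± 1.13% against 2.53 ± 1.52% in vehicle, with overlap. Cox4i2 (log2 fold change -0.22, adjusted p = 0.567) and Cox6b2 (0.18, adjusted p = 0.538) overlapped vehicle.

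The common isoforms Cox4i1, Cox6a1 and Cox8a were not called at 48 h. Cox4i1 had 232 to 255 CPM at 50 µM against 228 to 281 (log2 fold change -0.02, interval -0.15 to 0.11), and Cox6a1 112 to 132 against 116 to 154 (-0.08, interval -0.23 to 0.07). Cox8a had 72.8 to 88.3 CPM against 80.8 to 94.6 (-0.19, adjusted p = 0.0829). The complex I core subunits Ndufs1 (-0.07) and Ndufv1 (-0.13) and the complex IV subunit Cox5a (-0.27) were not called, with adjusted p-values of 0.447, 0.272 and 0.0709. Atp5b of the catalytic head of complex V was called lower, as given above.

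Single genes of neighbouring steps of energy metabolism were called at 50 µM. Of the 4 complex II genes, Sdhb, the iron-sulphur subunit, fell at 48 h (log2 fold change -0.18, adjusted p = 0.0469). Of 15 citrate cycle genes, Sucla2, a succinate-CoA ligase subunit, fell at 24 h (-0.26, adjusted p = 0.0339) and at 48 h (-0.20, adjusted p = 0.0172), with Pdhb of pyruvate dehydrogenase at 48 h (-0.19, adjusted p = 0.0348). Of 36 assembly factors outside the symbol rule, 1 rose, the complex I factor Timmdc1, at 24 h (0.34, adjusted p = 0.0413) and 48 h (0.35, adjusted p = 0.00713). Of 19 regulators of mitochondrial biogenesis, Polg, the mitochondrial DNA polymerase, fell at 48 h (-0.26, adjusted p = 0.0116). Of 15 hypoxia-responsive genes, Pfkfb3 (-0.54, adjusted p = 0.0284) and Ankrd37 (-1.165, adjusted p = 0.0333) fell at 3 h, and Slc2a1 (0.61, adjusted p = 0.00142) and Ddit4 (0.38, adjusted p = 0.0123) rose at 48 h.

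The 10 µM cultures were set against the same vehicle libraries as those of 50 µM. At 10 µM BPA no subunit gene was called at any time, against 0%, 0% and 0.00591% of all genes at 3, 24 and 48 h. edgeR gave 2, 4 and 9 at an unadjusted p under 0.05, and DESeq2 called 0 each time. The 95% interval lay within 1.5-fold for 81 of 86, 81 of 87 and 78 of 87 genes. At 3 h 77 of 86 fold changes were above 0 with a median of 0.11. Replicate 3 stood apart there, with a median shift of 0.43 against -0.06 to 0.15 in the other 4 libraries, and without it the median was 0.03. In that library the short genes outside the set were shifted by 0.48, the ribosomal protein genes by 0.44 and genes of over 4000 bases by -0.15. At 48 h 75 of 87 fold changes were below 0 with a median of -0.08, which was -0.04 without replicate 1 of vehicle. Short genes outside the set had a median of -0.10 in that comparison, and with their level as a covariate the median of the subunits was -0.01.

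The doses were also set against each other in a fit of all 45 libraries, in which 50 and 10 µM share no library. No subunit gene was called at 3, 24 or 48 h, against 0.618%, 0.789% and 3.14% of all genes. edgeR gave 12, 4 and 10 at an unadjusted p under 0.05. DESeq2 called 0, 2 and 0, the 2 being Cox8b lower and Ndufaf7 higher at 50 µM. Cox8b had means of only 0.151 CPM at 50 µM and 0.840 at 10 µM at 24 h, so its call is given with no test. For Atp5f1 at 48 h the difference was -0.15 (interval -0.26 to -0.03, adjusted p = 0.204). A dose difference of this size was not resolved.

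Whether the effect of 50 µM differed between times was tested as an interaction. No subunit gene was called for 24 h minus 3 h or for 48 h minus 24 h, against 0.592% and 0% of all genes, with 3 and 0 at an unadjusted p under 0.05 in edgeR and 0 and 0 calls in DESeq2. For Atp5b the difference between 24 and 3 h was -0.18 (interval -0.33 to -0.02, adjusted p = 0.417). These tests share the 24 h libraries. The effects at 48 h are not shown to differ from those at 24 h.

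Among themselves the subunit genes varied somewhat more between like libraries than the table as a whole. In vehicle the median coefficient of variation of the members above 10 CPM was 11.3%, 10.9% and 10.6% at 3, 24 and 48 h, against 9.27%, 9.09% and 8.37% over all genes above that level. Of the 89 members, 32 share exon bases with another annotated gene, 3 of them over more than 25% of their length (Ndufaf2, Ndufb6 and Ndufa13), so their values are uncertain if counting ignored strand.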

How the data were processed

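Messenger RNA was captured with poly-T beads from total RNA and made into cDNA libraries by random priming, per the labels' protocols. The deposited tables compare 2 groups each (9 tables) and hold whole-number counts per gene, FPKM scaled by gene length and depth per the file headers, a normalised signal per library, and the authors' log2 fold change, p-value and adjusted p-value. CASAVA 1.8, STAR 2.5, HTSeq 0.6.1, DESeq2 and mm10 are named, without settings, in the submitters' processing notes. No source used here gives the library strand. Only the deposited counts entered the tests, and the deposited FPKM served to compare levels between genes. Counts of a library were equal in every table (1299405 compared, 0 unequal), and 0 columns belonged to no labelled sample.

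Each comparison with vehicle or between times was fitted on its 10 libraries with edgeR 4.0.16 in R 4.3.3 (quasi-likelihood test, TMM, minimum count 10, minimum total 15, Benjamini-Hochberg adjustment at 0.05 over all genes tested). Dose against dose and the interactions came from 1 fit of 45 libraries. CPM were taken on 1 TMM scale over the 45 libraries. Standard errors and 95% intervals derive from the test. The procedure was tested on simulated data. Alternatives were DESeq2 1.42.0, median-of-ratios factors, no filter, a replicate block, 1 fit of all libraries and leaving out each library. A covariate for short transcripts (up to 1000 bases, mean of at least 10 CPM) was added after the data were seen.

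Only at 50 µM and 48 h against vehicle did every same-numbered pair of libraries deviate together at a correlation over 0.1 (0.105 to 0.215, 5 pairs). The members, gene lists and tests were chosen with earlier results of these data known. The subunits to be named were called subunits, isoforms, a choice of main subunits and the highest subunits per length. Values in each library are given for some of them, and a range, mean or fold change for the others. Genes outside the set are named among the up to 4 called genes of smallest p per list. Cox6c, Ndufa5 and Ndufaf7 were named after their values were seen. Titles were followed where another label field differed: at 50 µM and 3 h a field reads 24 h, and at 10 µM and 48 h the codes of 2 replicates are swapped, for which the block was fitted either way. The result of 1 called gene is not reported here by name. Reads carry no molecular identifiers, so PCR copies are counted as reads.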

Additional observations from a re-analysis of the deposited data

Results flagged for a closer look

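Of 117 groups of 5 libraries examined, 7 held a library whose gap to its nearest neighbour was large for the range of the group. Chance alone gives about 1 in 20, so this number is near what chance gives. Atp5j2 was high in replicate 2 of vehicle at 3 h (134.9 CPM, against 106 to 113 in the others), in replicate 1 of vehicle at 48 h (132.1 CPM, against 101 to 110.0) and in replicate 1 of 10 µM at 48 h (122.0 CPM, against 89.8 to 98.9).

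Ndufa4l2 was high in replicate 4 of 10 µM at 24 h (8.549 CPM, against 0.651 to 2.24), a library that also held the highest Cox4i2 of its group (11.1 CPM). At 50 µM and 48 h, Cox8b was high in replicate 2 (1.114 CPM, against 0.417 to 0.512) and Cox6b2 in replicate 4 (17.72 CPM, against 13.4 to 14.2). The summed level of complex I was high in replicate 1 of 10 µM at 24 h (1762 CPM, against 1574 to 1618).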

How the results depend on the processing

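No called subunit gene changed sign under the alternatives run. At 50 µM and 48 h the 5 calls became 8 with DESeq2 (against 11.4% of all genes), 18 with the replicate block (15.5%), 3 in 1 fit of all 45 libraries (7.26%) and 1 with the short-transcript covariate (8.53%), and 2 to 8 when each library was left out. At 24 h the 2 calls became 4 with the block (7.01% of all genes) and 4 with the covariate (6.77%), and 0 to 2 with a library left out. From 3 to 24 h in vehicle the 8 calls became 20 with the covariate (37.4% of all genes) and 7 to 13 with a library left out. From 24 to 48 h leaving out a library gave 0 to 2, and from 3 to 48 h 11 to 17. For 50 against 10 µM, DESeq2 called 2 at 24 h (1.56% of all genes), Cox8b among them, and the block 1 at 48 h (Ndufa4l2, lower, against 4.66%). The calls of Cox8b and Ndufa4l2 are given with no test. In the other comparisons with vehicle and between times at least 1 same-numbered pair correlated at 0.1 or less, so the block was not taken as a pairing there, although 4 of 5 pairs were over 0.1 for 50 µM at 24 h (0.106 to 0.221) and for 10 µM at 24 h (0.228 to 0.358) and 48 h (0.108 to 0.375). The cause of these changes was not tested. Low levels limit Cox8b, Cox7a1, Cox7b2, Cox8c and Ndufa4l2, and at 48 h the median shift of short transcripts over the vehicle libraries (-0.11 to 0.17 on the log2 scale) spans a range like the median change of the subunits.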
